A study of Rattus norvegicus with 60 samples.

Results

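Between 60 and 120 mg/kg per day of N,N-dimethyl-p-toluidine (DMPT), the expression of 35 of 14217 liver genes differed, 29 higher and 6 lower at 120 mg/kg. The 5 largest rises were in Akr1b8 (an aldo-keto reductase), Cyp1a1 (a monooxygenase), Car2 (a carbonic anhydrase), Nqo1 (a quinone reductase) and Akr7a3 (an aldehyde reductase). The account covers the 5 arrays of rats given 120 mg/kg set directly against the 5 arrays of rats given 60 mg/kg, 10 of the 60 arrays of the study, chosen by their titles alone. DMPT hardens acrylic resins such as dental cements, as an accelerator of the reaction. All animals were male F344/N rats, an inbred strain, 5 to 6 weeks old at the start, and received the compound in corn oil by stomach tube in 2.5 ml/kg on 5 days in a row. The groups used here are the 120, 60, 20, 6 and 1 mg/kg DMPT groups and the corn oil vehicle group of DMPT, with 5 arrays each, and the matching 120 mg/kg, 60 mg/kg and vehicle groups of p-toluidine, the same ring without the N-methyl groups. Every group, vehicle included, had the same strain, sex and gavage, and no allele was altered.

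Each array measured RNA from frozen pieces of the left lateral liver lobe on a one-colour Affymetrix 3′ expression array, in which a probe set is a group of short probes for one transcript. The values were taken as log2 expression, so a difference of 1 is a doubling of signal, and every fold below depends on that scale. The labels number the arrays of a group but name neither animal nor cage for any of them, and the p-values therefore reflect the spread among these samples alone, which may be technical. In whole tissue, fewer cells of a type and less RNA per cell cannot be told apart.

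As background, a liver meets a reactive chemical with layers of enzymes. Transcription factors such as NRF2, released when electrophiles modify its inhibitor KEAP1, and AHR, which binds flat aromatic ligands, switch on genes for oxidation, reduction and conjugation. NRF2 with a small MAF partner binds the antioxidant response element, and AHR with ARNT binds the xenobiotic response element. Such genes often respond at different doses, so a step between neighbouring doses can show which still change there. A step that misses the test does not by itself show that a gene has stopped climbing.

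Across 31042 probe sets, 54 differed between 120 and 60 mg/kg at an adjusted p of at most 0.05 (limma over the 30 DMPT arrays, Benjamini-Hochberg), and only these are said to have risen or fallen. They made up 0.174% of the probe sets tested, with 40 higher at 120 mg/kg (0.129%) and 14 lower (0.0451%), while 2522 had an unadjusted p under 0.05. The change was at least 1.5-fold for 26 of the 54 and at least 2-fold for 10. In 44 of the 54 no array at 120 mg/kg overlapped an array at 60 mg/kg, against 400 of all probe sets (1.29%). With each gene read through its brightest probe set, 35 of 14217 genes changed (0.246%), 29 upward (0.204%) and 6 downward (0.0422%). In the same fit, 1816 genes differed from vehicle at 120 mg/kg (12.8%; 5.31% higher, 7.46% lower) and 1040 at 60 mg/kg (7.32%; 2.43% higher, 4.89% lower). The step between 20 and 60 mg/kg held 27 genes (0.19%).

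**Figure D1:**
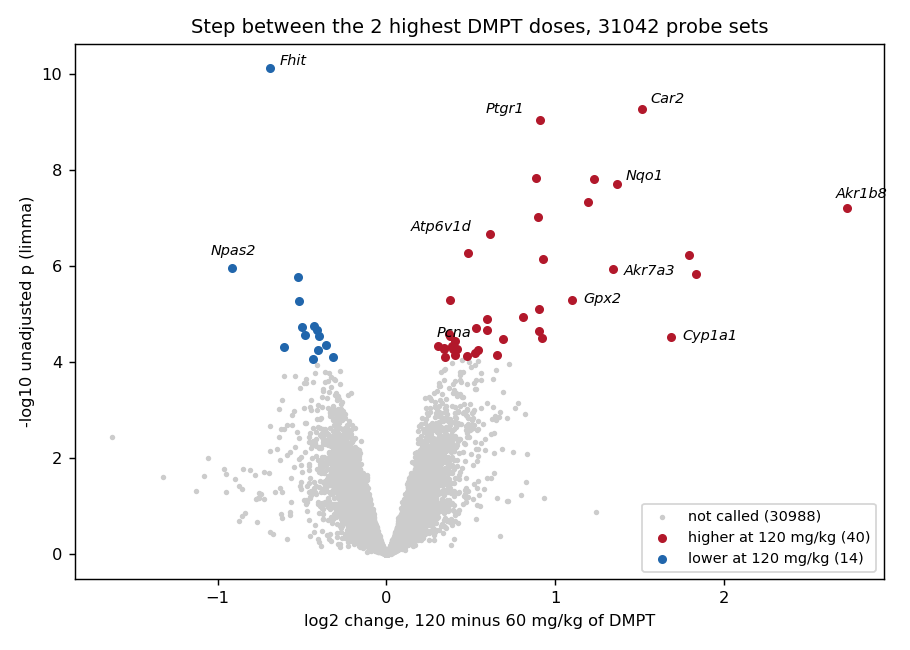
The log2 change from 60 to 120 mg/kg of DMPT (horizontal) is plotted against -log10 of the unadjusted limma p (vertical) for 31042 probe sets. The 40 probe sets called higher are red, the 14 called lower are blue, and Akr1b8 lies farthest to the right at 2.73 while Fhit has the smallest p.

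Relative to vehicle, the 35 genes held several positions. For 13 of them both doses differed from vehicle, for 17 the 120 mg/kg group alone did, for 3 the 60 mg/kg group alone did, and for 2 neither did. In 34 of the 35 the step ran in the same direction as the difference between 120 mg/kg and vehicle. These counts share arrays with the step and only describe where each gene stood.

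Some arrays stood apart. The spread of values within an array (the interquartile range) was narrow on arrays 2 and 5 at 120 mg/kg, on arrays 3 and 5 at 60 mg/kg and on 1 array at 6 mg/kg. The mean range was 3.23 at 120 mg/kg and 3.24 at 60 mg/kg (two-sided exact permutation test, p = 0.921, 5 arrays each). The 3′ minus 5′ difference of the Gapdh control, a gauge of RNA integrity, was -0.103 ± 0.062 at 120 mg/kg and -0.012 ± 0.051 at 60 mg/kg (SD, n = 5 each, exact permutation p = 0.0397, adjusted over 4 such tests 0.159). That of beta-actin was 1.28 ± 0.08 and 1.39 ± 0.20 at the same doses (exact permutation p = 0.317, smallest possible p 0.00794). Without the 4 narrow arrays at these doses and the one at 6 mg/kg, 25 probe sets passed the test (20 higher, 5 lower). In that fit 10 of the 35 genes kept their call: Akr1b8, Car2, Nqo1, Ptgr1, Ly6i, Atp6v1d, Ugdh, Trim54, Fhit and Npas2. Leaving out 1 array at a time gave 24 to 77 calls, with 24 without array 1 at 120 mg/kg, 29 without array 3 at 60 mg/kg and 35 without array 1 at 60 mg/kg. Akr1b8, Car2, Nqo1, Akr7a3, Slc66a3, Ptgr1, Atp6v1d, Ugdh, Rangrf, Fhit and Npas2 were called in all 10 of these fits. With only the 10 arrays of the 2 doses compared, 14 probe sets were called, and 7 of the 35 genes kept their call: Car2, Nqo1, Akr7a3, Gpx2, Ptgr1, Ccne2 and Fhit.

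Before their values, 4 promoters of genes that rose are shown, 3 of them because they hold the core letters of the antioxidant response element and 1, that of Nqo1, because it holds those of the xenobiotic response element. Each is the 250 bases before the annotated start of the gene, written 5′ to 3′ on the strand of the gene, from RefSeq on assembly GRCr8. Capitals mark TGACNNNGC (antioxidant response element core) or GCGTG (xenobiotic response element core), read on either strand. In Ugdh the 2 motifs overlap.
Gpx2, chr6:101230034-101230283, - strand: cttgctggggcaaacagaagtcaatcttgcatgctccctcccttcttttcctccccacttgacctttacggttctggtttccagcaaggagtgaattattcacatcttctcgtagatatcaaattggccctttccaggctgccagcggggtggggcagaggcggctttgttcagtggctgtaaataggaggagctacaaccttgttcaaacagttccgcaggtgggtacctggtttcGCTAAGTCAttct
Ephx1, chr13:95263118-95263367, - strand: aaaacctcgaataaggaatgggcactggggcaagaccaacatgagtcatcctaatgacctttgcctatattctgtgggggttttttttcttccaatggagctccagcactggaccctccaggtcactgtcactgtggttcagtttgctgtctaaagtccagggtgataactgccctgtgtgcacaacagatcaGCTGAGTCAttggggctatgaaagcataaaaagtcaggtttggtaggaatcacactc
Ugdh, chr14:43202268-43202517, + strand: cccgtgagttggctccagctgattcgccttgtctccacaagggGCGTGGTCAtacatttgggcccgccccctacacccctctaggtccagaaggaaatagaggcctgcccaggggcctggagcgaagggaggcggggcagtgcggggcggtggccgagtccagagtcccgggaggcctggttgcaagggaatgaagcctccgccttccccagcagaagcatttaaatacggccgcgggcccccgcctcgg
Nqo1, chr19:52220268-52220517, - strand: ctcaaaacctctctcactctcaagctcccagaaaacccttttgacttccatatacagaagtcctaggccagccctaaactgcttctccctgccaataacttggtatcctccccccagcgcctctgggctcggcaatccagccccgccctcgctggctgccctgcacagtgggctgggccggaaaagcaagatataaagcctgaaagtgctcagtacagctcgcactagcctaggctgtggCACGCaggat

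The antioxidant response element core began 13 bases before the start in Gpx2, 57 in Ephx1 and 207 in Ugdh. Of the 35 genes, 28 had a promoter sequence to search, and Cyp1a1 was among those without one. The antioxidant core was in 5 of the 23 promoters of genes that rose (21.7%), Cystm1 and Tmem41a being the others, against 10.1% of 33465 promoters of the same length. The xenobiotic core was in 11 of the 23 (47.8%), against 25.9%. Among the 5 promoters of genes that fell, 0 held the antioxidant core and 3 the xenobiotic core. A match is a description of letters in this window and not a bound site, and Akr1b8, with the largest change, held neither. Bases farther from the start were not searched, so a promoter without a core here, as that of Nqo1 for the antioxidant core, may hold one there.

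Of 31 measured NRF2 target genes, 7 rose between 60 and 120 mg/kg and 0 fell, against 0.204% and 0.0422% of all genes. The median change of the list was 0.24 log2, with 28 of 31 members above 0, while the median of all genes was 0.01 with 52.4% above 0. The list was written with earlier results of these data known and is no independent evidence of its direction. Against vehicle, 20 members had risen at 120 mg/kg and 16 at 60 mg/kg, against 5.31% and 2.43% of all genes. In each of these comparisons 1 member had fallen. The mean log2 signal of the 31 members was 8.58, 8.37, 8.29, 8.33 and 8.20 on the 5 arrays at 120 mg/kg, against 8.024, 8.036, 7.753, 8.001 and 7.921 at 60 mg/kg and 7.11 to 7.41 in vehicle, so the 3 groups did not overlap.

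Akr1b8, an aldo-keto reductase that reduces aldehydes, read 9.16, 7.11, 5.17, 7.72 and 5.66 on the arrays at 120 mg/kg, against 4.38, 4.35, 4.11, 4.22 and 4.13 at 60 mg/kg. The 60 mg/kg arrays sat close together, near the vehicle arrays (3.66 to 4.19), and the 120 mg/kg arrays were widely spread, all above them. The rise was 6.62-fold (2.73 ± 0.39 log2, SE; adjusted p = 0.00024), and with only the 10 arrays compared the adjusted p was 0.101. The error comes from all 6 groups, and the SD of Akr1b8 was 1.61 at 120 mg/kg, against 0.08 to 0.37 in the others. That error also enters the comparison of 60 mg/kg with vehicle. At 60 mg/kg the difference from vehicle was 0.35 and was not called (adjusted p = 0.727), while the difference at 120 mg/kg was 3.08. Members of close families (Akr1b, Gsta, Ugt2b, Mup, Serpina3 and Ly6) can share probes, so their identity is uncertain. The relatives Akr1b7 and Akr1b10 had steps of 1.24 and -0.12, neither called.

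Nqo1, the quinone reductase, read 9.59, 9.27, 8.63, 8.62 and 8.26 at 120 mg/kg, against 7.69, 7.86, 6.98, 7.62 and 7.41 at 60 mg/kg. Each array at 120 mg/kg exceeded each array at 60 mg/kg, and the vehicle arrays lay lower again, at 5.90 to 6.45. The step was 2.57-fold (1.36 ± 0.18 log2, SE; adjusted p = 9.7e-05). Its group means ran 6.15, 6.16, 6.28, 6.48, 7.51 and 8.87 from vehicle through 1, 6, 20, 60 and 120 mg/kg, with the 2 largest steps above 20 mg/kg. The step from 20 to 60 mg/kg was 1.03 log2 (adjusted p = 0.0247).

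Akr7a3, which reduces the dialdehyde of aflatoxin, read 12.03, 12.11, 11.51, 11.85 and 11.65 at 120 mg/kg, against 10.56, 10.65, 10.01, 10.62 and 10.62 at 60 mg/kg and 7.68 to 8.58 in vehicle. Neither dose overlapped the other or vehicle, and array 3 at 60 mg/kg was the lowest of its group. It rose 2.53-fold (1.34 ± 0.22 log2, SE; adjusted p = 0.0024) after a step of 1.57 from 20 to 60 mg/kg (adjusted p = 0.0018). Without the narrow arrays the step was 1.19 and missed the threshold (adjusted p = 0.166).

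Gpx2, a glutathione peroxidase best known from the gut lining, whose promoter is printed above, read 7.31, 7.11, 6.71, 6.76 and 6.42 at 120 mg/kg, against 5.92, 5.91, 5.40, 5.62 and 5.96 at 60 mg/kg. The groups did not overlap, and both lay above vehicle (3.69 to 4.81). It rose 2.14-fold (1.10 ± 0.20 log2, SE; adjusted p = 0.0081), and the call was lost without array 1 at 120 mg/kg (adjusted p = 0.0511) and without the narrow arrays (adjusted p = 0.116).

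Ptgr1, which reduces lipid-derived enals and ketones, read 11.10, 11.13, 10.67, 10.84 and 10.59 at 120 mg/kg, against 10.27, 10.00, 9.68, 9.86 and 9.97 at 60 mg/kg. Its group means of 8.71, 8.81, 9.05, 9.37, 9.96 and 10.87 from vehicle to 120 mg/kg were higher at each successive dose, and the 2 top doses did not overlap. The step was 1.88-fold (0.91 ± 0.11 log2, SE; adjusted p = 9.3e-06).

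Ephx1, the microsomal epoxide hydrolase, rose 1.44-fold (0.53 ± 0.11 log2, SE; adjusted p = 0.0228), with 11.07 to 11.60 at 120 mg/kg, against 10.59 to 10.94 at 60 mg/kg. It kept its call in 6 of the 10 fits without 1 array, with the largest adjusted p, 0.122, without array 1 at 120 mg/kg. Ugdh, which makes the UDP-glucuronic acid used in conjugation, rose 1.39-fold (0.48 ± 0.08 log2, SE; adjusted p = 0.0015, and 0.138 with only the 10 arrays), with 9.61 to 10.14 at 120 mg/kg, against 9.31 to 9.52 at 60 mg/kg. Both had been above vehicle at 60 mg/kg, by 0.65 log2 for Ephx1 and 0.45 log2 for Ugdh.

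The other NRF2 targets did not pass the test. Hmox1, heme oxygenase, had a step of 0.53 (adjusted p = 0.0589, and 0.047 without the narrow arrays), Gclc, a subunit of the enzyme that starts glutathione synthesis, 0.50 (adjusted p = 0.161), and Gsr, glutathione reductase, 0.44 (adjusted p = 0.214). Osgin1, which slows growth under oxidative stress, had the lowest step, -0.56 (adjusted p = 0.186). Gclc, Gsr, Osgin1, Akr1b10, Cyp1a2, Bmal1, Cyp2c11 and Cyp3a2 fall outside the rule for named genes and were chosen after their values were seen.

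**Figure D2:**
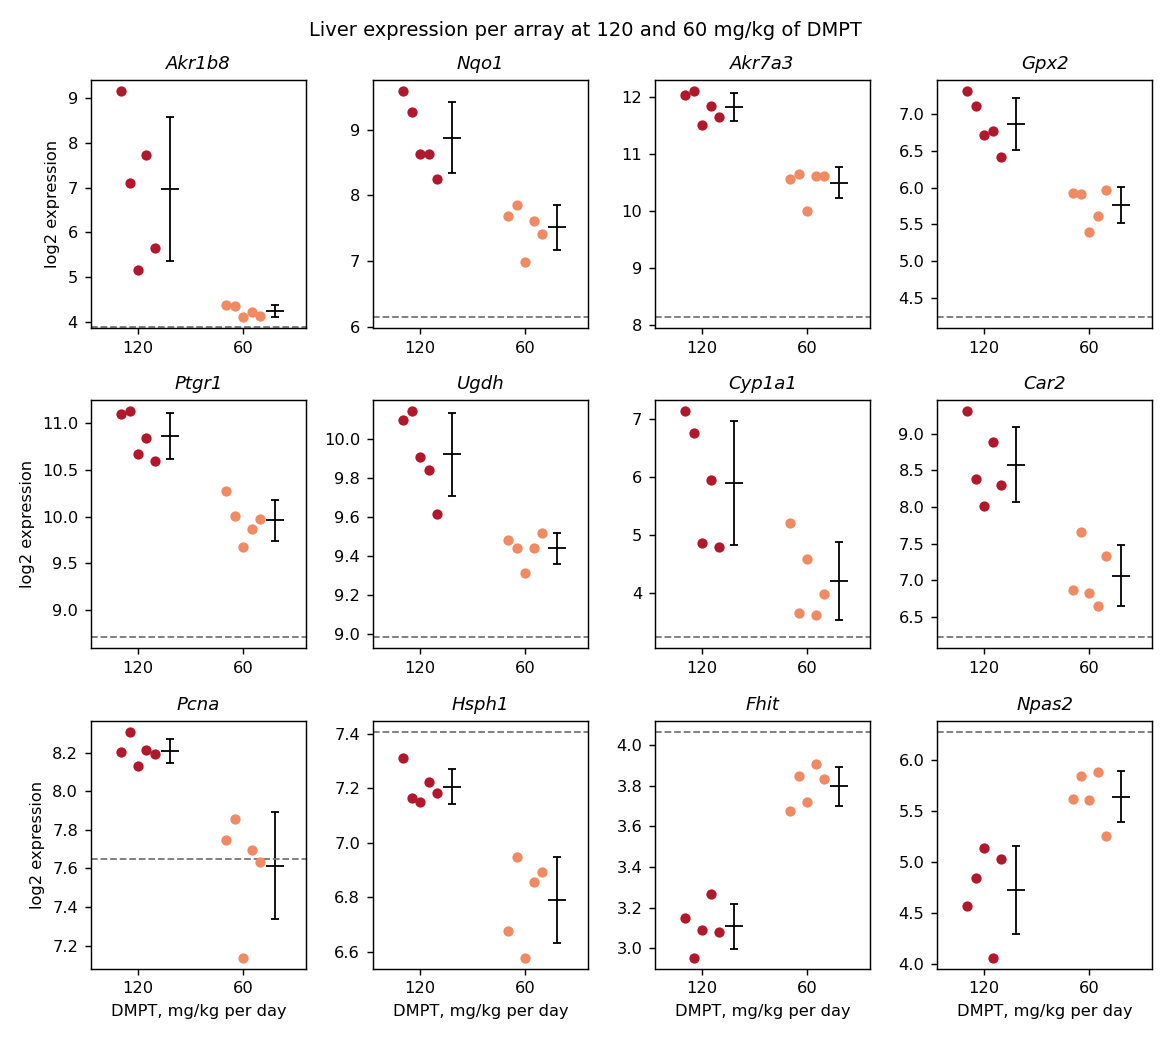
The log2 expression of 12 genes is plotted for the 5 arrays at 120 mg/kg (dark red, left) and the 5 at 60 mg/kg (orange, right), with mean and SD beside the points and the vehicle mean as a dashed line. The doses overlap only in Cyp1a1, Akr1b8 at 60 mg/kg lies near its vehicle line, and Hsph1 at 120 mg/kg lies between its 60 mg/kg arrays and its vehicle line.

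Cyp1a1, a monooxygenase and the classical AHR target, read 7.13, 6.76, 4.87, 5.95 and 4.80 at 120 mg/kg, against 5.20, 3.67, 4.59, 3.62 and 3.99 at 60 mg/kg. The groups overlapped, since array 1 at 60 mg/kg exceeded 2 arrays at 120 mg/kg. It rose 3.22-fold (1.69 ± 0.35 log2, SE; adjusted p = 0.0267) and kept its call in 4 of the 10 fits without 1 array, with an adjusted p of 0.149 without array 1 at 120 mg/kg. Nqo1 was the other of 8 AHR targets to rise, against 0.204% of all genes. Cyp1a2, the hepatic relative of Cyp1a1, had a step of -0.10 (adjusted p = 0.896), and the list had a median of 0.00 with 4 of 8 members above 0.

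Among 17 targets of the drug-sensing receptors CAR and PXR, only Ephx1 rose and 0 fell, with a median of 0.13 and 11 members above 0. An unadjusted p under 0.05 was seen with a rise in 8 and with a decrease in 0. Of all 14217 genes, 753 had such a rise (5.3%). Aldh1a1, which oxidizes retinal, had a step of 0.39 (adjusted p = 0.296) and Ugt2b1, a glucuronosyltransferase, 0.38 (adjusted p = 0.315). Of 20 glucuronosyl- and sulfotransferases, Ugt2b7 rose 1.87-fold (0.91 ± 0.18 log2, SE; adjusted p = 0.0241). It read 4.51, 3.70, 4.97, 3.95 and 3.89 at 120 mg/kg, against 2.89, 4.01, 2.92, 3.49 and 3.19 at 60 mg/kg and 1.99 to 2.31 in vehicle. Array 2 at 60 mg/kg lay among the 120 mg/kg arrays, and the probe set was below the median brightness. In the list of 15 aldo-keto reductases, Akr1b8 and Akr7a3 rose. The share that rose among all genes was 0.204%.

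Car2, carbonic anhydrase 2, which interconverts carbon dioxide and bicarbonate, read 9.30, 8.38, 8.02, 8.89 and 8.30 at 120 mg/kg, against 6.87, 7.66, 6.82, 6.64 and 7.34 at 60 mg/kg and 5.90 to 6.35 in vehicle. All 5 arrays at the higher dose lay above all 5 at the lower. It rose 2.85-fold (1.51 ± 0.17 log2, SE; adjusted p = 8.1e-06), and its second probe set rose as well, by 1.23 (adjusted p = 9.4e-05). The group means of 6.23, 6.23, 5.88, 6.24, 7.07 and 8.58 from vehicle to 120 mg/kg stayed within 5.88 to 6.24 up to 20 mg/kg. With Akr1b8 and Akr7a3, counted above among the aldo-keto reductases, it made 3 of 19 genes known from rat liver foci and fetal liver that rose. Of all genes 0.204% rose. The list median was 0.13, and this list too was written with earlier results of these data known.

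Other genes that rose do not share one function. Slc66a3, a membrane protein related to amino acid transporters, read 4.77, 4.09, 4.19, 3.86 and 4.63 at 120 mg/kg, against 3.19, 3.92, 3.18, 3.19 and 3.44 at 60 mg/kg, a rise of 0.92 log2 (adjusted p = 0.0016, and 0.101 with only the 10 arrays). Array 2 at 60 mg/kg overlapped the higher dose there too. Atp6v1d, a subunit of the proton pump of lysosomes, rose 1.53-fold (0.61 ± 0.09 log2, SE; adjusted p = 0.00067, and 0.1195 with only the 10 arrays), with 8.20 to 8.78 at 120 mg/kg, against 7.43 to 8.01 at 60 mg/kg and 7.85 to 8.08 in vehicle. Mgmt, which removes alkyl groups from guanine in DNA, rose by 0.54 log2 (adjusted p = 0.0365), with 7.06 to 7.40 at 120 mg/kg, against 6.15 to 7.01 at 60 mg/kg and 6.80 to 6.97 in vehicle. It kept its call in 3 of the 10 fits without 1 array, and lost it without the narrow arrays (limma adjusted p = 0.185). Ly6i, a surface protein of the Ly6 family read by a dim probe set, rose by 0.69 log2 (adjusted p = 0.028). Its doses overlapped, and it kept its call in 4 of the 10 fits without 1 array. The remaining rises were Gucy2c (0.48), Trim54 (0.41), Cystm1 (0.40), Tmem41a (0.39), Hnrnpc (0.39), Rangrf (0.38), Emc1 (0.38), Slc35e3 (0.37), Ppa1 (0.35) and Rexo2 (0.34), all in log2, which fall outside the naming rule with Ugdh and are named so that all 35 genes are accounted for. Rangrf kept its call in all 10 fits without 1 array, and the other remaining rises in 2 (Ppa1) to 6 (Cystm1 and Emc1) of them. Gucy2c and Trim54 are dim, and dimmer second probe sets of Cystm1, Emc1 and Slc35e3 had no called step.

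Few cell cycle genes passed the test, though nearly all had a step above 0. Of 47 genes for DNA replication and division, Ccne2 and Pcna rose and 0 fell, against 0.204% and 0.0422% of all genes. The median step was 0.34 log2, with 45 of 47 above 0. An unadjusted p under 0.05 with a rise was seen in 17, against 753 of all 14217 genes (5.3%). Against vehicle, 19 members had risen at 120 mg/kg and 1 at 60 mg/kg, against 5.31% and 2.43% of all genes. At each dose 1 member had fallen. The mean log2 signal of the list was 5.19, 5.12, 5.52, 5.34 and 5.48 at 120 mg/kg, against 4.91, 5.54, 4.42, 4.86 and 5.25 at 60 mg/kg, so the doses overlapped, and array 3 at 60 mg/kg, one of the narrow arrays, was the lowest.

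Pcna, the sliding clamp of DNA polymerase, read 8.20, 8.31, 8.13, 8.22 and 8.19 at 120 mg/kg, against 7.75, 7.86, 7.14, 7.70 and 7.63 at 60 mg/kg and 7.32 to 7.98 in vehicle. The 120 mg/kg arrays were close together and above all the others. It rose 1.51-fold (0.60 ± 0.12 log2, SE; adjusted p = 0.0235). Ccne2, cyclin E2, which drives entry into DNA synthesis, rose 1.75-fold (0.81 ± 0.16 log2, SE, adjusted p = 0.0158). It read 3.34 to 3.80 at 120 mg/kg, against 2.51 to 3.12 at 60 mg/kg and 2.43 to 3.52 in vehicle, so vehicle overlapped both doses. This probe set was below the median brightness, and a dimmer one of Ccne2 had a step of 0.02. Esco2, which acetylates cohesin during DNA replication and stands in none of the lists, read 4.95 to 5.13 at 120 mg/kg, against 3.44 to 4.83 at 60 mg/kg (0.90 ± 0.17 log2, SE; adjusted p = 0.0112). Mcm6, a subunit of the replicative helicase, and Top2a, a topoisomerase of dividing cells, had steps of 0.82 and 0.64 that were not called (adjusted p = 0.181 and 0.189).

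Without array 3 at 60 mg/kg the list median was 0.16 and 0 members were called. Without the narrow arrays it was 0.23, with 43 of 47 above 0 and 0 called, and the adjusted p was 0.358 for Pcna, 0.208 for Ccne2 and 0.301 for Esco2. The part of array spread in the cell cycle values was not tested.

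Heat shock genes, which encode protein-folding chaperones, had 2 rises and 0 falls among 13, with a median of 0.15. Of all genes 0.204% rose and 0.0422% fell. Hsph1, a cytosolic chaperone of the Hsp110 family, read 7.31, 7.16, 7.15, 7.22 and 7.18 at 120 mg/kg, against 6.67, 6.95, 6.58, 6.86 and 6.89 at 60 mg/kg and 7.21 to 7.55 in vehicle. At 60 mg/kg it was below vehicle by 0.62 log2 (adjusted p = 4.2e-05), and the step of 0.42 (adjusted p = 0.0358) brought it back toward vehicle. Rangrf and Slc35e3 followed the same course, 0.34 below vehicle at 60 mg/kg each and within 0.04 of it at 120 mg/kg. Hspe1, the mitochondrial co-chaperonin, rose by 0.31 (adjusted p = 0.0352), with 10.83 to 11.06 at 120 mg/kg, against 10.48 to 10.75 at 60 mg/kg. Hspb1 and Cryab, small heat shock proteins, had steps of 0.56 and 0.31 (adjusted p = 0.168 and 0.0973). The calls of Hsph1 and Hspe1 were lost without the narrow arrays (adjusted p = 0.208 for each).

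The 6 genes that fell were few but included the smallest p of the step. Fhit, a hydrolase of dinucleoside polyphosphates known in humans as a tumour suppressor at a fragile site, read 3.15, 2.96, 3.09, 3.27 and 3.08 at 120 mg/kg, against 3.67, 3.85, 3.72, 3.91 and 3.83 at 60 mg/kg and 3.92 to 4.18 in vehicle. The 120 mg/kg arrays lay well below all others, and the 60 mg/kg arrays ended just under the lowest vehicle array. The fall was 1.61-fold (-0.69 ± 0.07 log2, SE; adjusted p = 2.3e-06), and Fhit was also called with the 10 arrays alone (adjusted p = 0.0031).

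Npas2, a partner of BMAL1 in the circadian clock, read 4.57, 4.84, 5.14, 4.06 and 5.03 at 120 mg/kg, against 5.62, 5.84, 5.61, 5.89 and 5.25 at 60 mg/kg and 6.07 to 6.63 in vehicle. It fell 1.88-fold (-0.91 ± 0.15 log2, SE; adjusted p = 0.0023, and 0.101 with only the 10 arrays) and was the only 1 of 17 circadian genes to change. Among the others Cry1 had a step of 0.40, Nr1d2 -0.40 and Bmal1 -0.20, none called. The hour of sampling is not stated in the labels.

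Nrep fell by 0.48, Tcf7l2, a transcription factor of the Wnt pathway, by 0.40, Slc17a2, a sodium-dependent phosphate transporter, by 0.36 and Serpina3m, a protease inhibitor, by 0.32 log2 (adjusted p = 0.0261, 0.0261, 0.0352 and 0.0457). Nrep read 9.30 to 9.69 at 120 mg/kg, against 9.82 to 10.10 at 60 mg/kg. The 4 other probe sets of Tcf7l2 had steps of -0.17 to -0.35, none called. These 4 genes kept their calls in 3 or 4 of the 10 fits without 1 array, and in none of them did the direction turn.

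**Figure D3:**
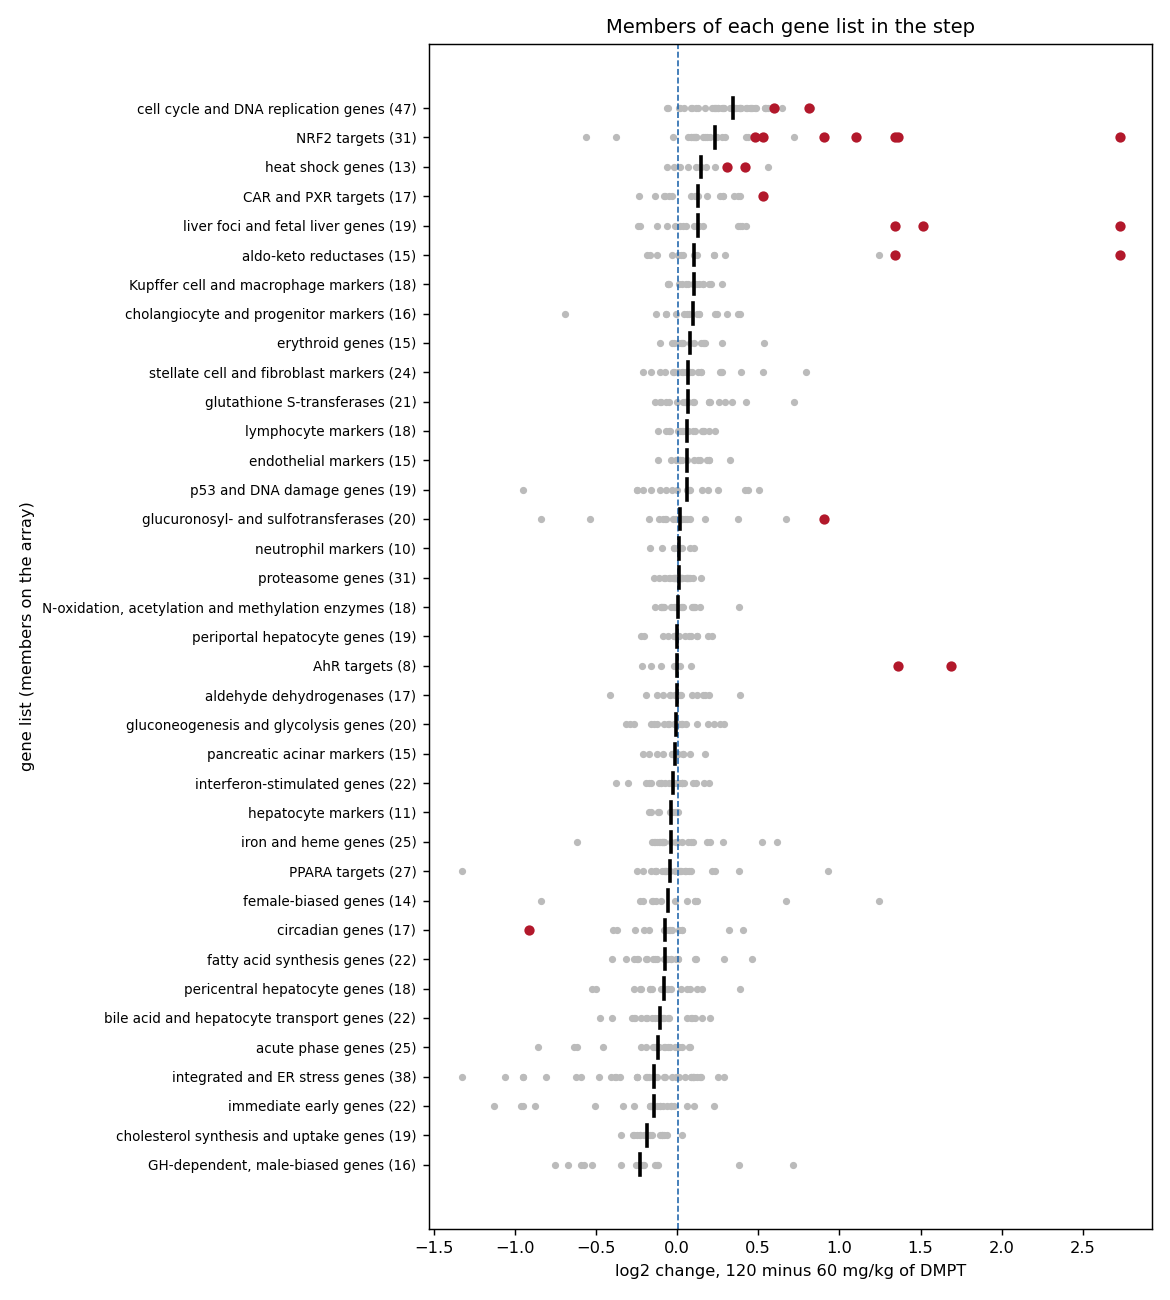
Each row is a gene list with its number of members on the array, and each point is the log2 change of a member from 60 to 120 mg/kg, red where called. Black bars are list medians, which run from 0.34 for cell cycle genes at the top to -0.23 for growth hormone dependent, male-biased genes at the bottom.

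Stress genes of the amino acid and unfolded protein responses had a median below 0 and no call. Of 38 such genes 0 rose and 0 fell, with a median of -0.14, 12 above 0 and 9 with a decrease at an unadjusted p under 0.05, against 511 of all 14217 genes (3.59%). Chac1, which degrades glutathione, read 5.53, 5.10, 5.51, 5.08 and 4.97 at 120 mg/kg, against 6.62, 6.53, 6.15, 6.33 and 5.87 at 60 mg/kg and 4.86 to 6.00 in vehicle. All the 120 mg/kg arrays lay below all the 60 mg/kg arrays and inside the range of vehicle. Its step was -1.06 ± 0.38 log2 (SE; adjusted p = 0.368), and with only the 10 arrays compared it was called (adjusted p = 0.0108).

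Fgf21, a fasting and stress hormone of the liver, read 6.43, 5.35, 6.95, 6.46 and 5.73 at 120 mg/kg, against 7.46, 7.72, 7.58, 7.97 and 6.83 at 60 mg/kg, a step of -1.33 ± 0.56 (SE; adjusted p = 0.51). Ddit4, an inhibitor of mTOR signalling, and Atf3, a stress transcription factor, had steps of -0.95 each (adjusted p = 0.488 and 0.614). Of 22 immediate early genes 3 were above 0 (median -0.14), with Egr1 at -1.13 and Jun at -0.96, neither called. Their values varied widely within a dose, as in Egr1, with 4.87 to 8.30 at 120 mg/kg, against 6.03 to 8.61 at 60 mg/kg.

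Sterol synthesis genes and growth hormone dependent genes had medians below 0 and no calls. Of 19 genes of cholesterol synthesis and uptake 1 was above 0 (median -0.19), and the list median against vehicle was 0.02 at 120 mg/kg and 0.24 at 60 mg/kg. Idi1 and Lss, enzymes of the pathway, had steps of -0.35 and -0.25 (adjusted p = 0.811 and 0.682). Without the narrow arrays the list median was -0.02. Of 16 growth hormone dependent, male-biased genes 2 were above 0 (median -0.23). Avpr1a, a vasopressin receptor, had a step of -0.53 (adjusted p = 0.244), and Cyp2c11, the main male-specific cytochrome of rat liver, -0.57 (adjusted p = 0.783).

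Markers of other liver cells gave no call. Kupffer cell markers had 15 of 18 members above 0 (median 0.10) and a summed level on a log2 scale of 11.2 to 11.5 at 120 mg/kg, against 11.0 to 11.4 at 60 mg/kg. The medians were 0.07 for 24 stellate cell and fibroblast markers, 0.06 for 15 endothelial and 18 lymphocyte markers, 0.10 for 16 cholangiocyte and progenitor markers, 0.08 for 15 erythroid genes, 0.01 for 10 neutrophil markers and -0.01 for 15 pancreatic acinar markers. The 11 hepatocyte markers, all above the median brightness, summed to 15.89 to 15.95 at 120 mg/kg, against 15.93 to 15.98 at 60 mg/kg (median step -0.04). The part of other cell types in the step was not tested. Of the acinar and neutrophil markers 1 each was above the median brightness.

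Whether a gene had reached a plateau was asked of the 473 genes already changed at 20 mg/kg against vehicle (3.33% of 14217; 1.74% higher, 1.59% lower) in the fit over all 30 arrays. The values of the 10 arrays of the step are not in that contrast, but they enter the error by which the genes were called. A gene was called a plateau gene where the 95% interval of its step lay inside 1.5-fold either way and the step itself was not called. The rule did not ask whether the gene still differed from vehicle at the doses of the step, or in which direction. A gene back at the vehicle level at both of these doses would therefore also count as a plateau gene. By that rule 420 genes (88.8%) were at a plateau, 3 went further (0.634%), 5 turned back and 45 (9.51%) were undecided. The same rule was met by 13711 of all 14217 genes (96.4%), and by 96.7% of the 13744 genes not called at 20 mg/kg, so a plateau is not particular to the genes changed at 20 mg/kg. With those genes called from the other 20 DMPT arrays alone, an alternative chosen after seeing the data, 498 of 557 (89.4%) were at a plateau, 3 went further, 6 turned back and 50 were undecided. Either side of the step, the interval reached 0.18 log2 in the median. Most of the 473 had changed little at 20 mg/kg. Of the 89 that had changed more than 1.5-fold there, 46 were at a plateau, 2 went further, 0 turned back and 41 were undecided. Of the 16 with a change of at least 2-fold, 2 were at a plateau and 14 undecided.

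The 3 genes that went further were Gpx2, Ptgr1 and Ugdh, whose values are given above. At 20 mg/kg they had been above vehicle by 0.89, 0.66 and 0.34 log2. The 5 that turned back were Slc17a2, which had been above vehicle by 0.34 at 20 mg/kg, and Mgmt, Hsph1, Slc35e3 and Hspe1, which had been below it by 0.46, 0.41, 0.33 and 0.27. Turning back means a called step against the 20 mg/kg change, not a return to vehicle. Slc17a2 and Mgmt did not differ from vehicle at 60 mg/kg (0.08 and -0.15, limma adjusted p = 0.678 and 0.570). At 120 mg/kg they differed on the other side, by -0.28 and 0.39 (limma adjusted p = 0.0144 and 0.0274). Hspe1 went from -0.14 to 0.16, neither called. No gene turned back with only the 10 arrays compared, without the narrow arrays, without array 1 at 120 mg/kg, or without array 1 or 3 at 60 mg/kg. No gene that had fallen at 20 mg/kg fell further, among 226, while 202 of them met the plateau rule. Of all 14217 genes only 6 fell in the step (0.0422%), so a count of 0 is not particular to these 226.

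**Figure D4:**
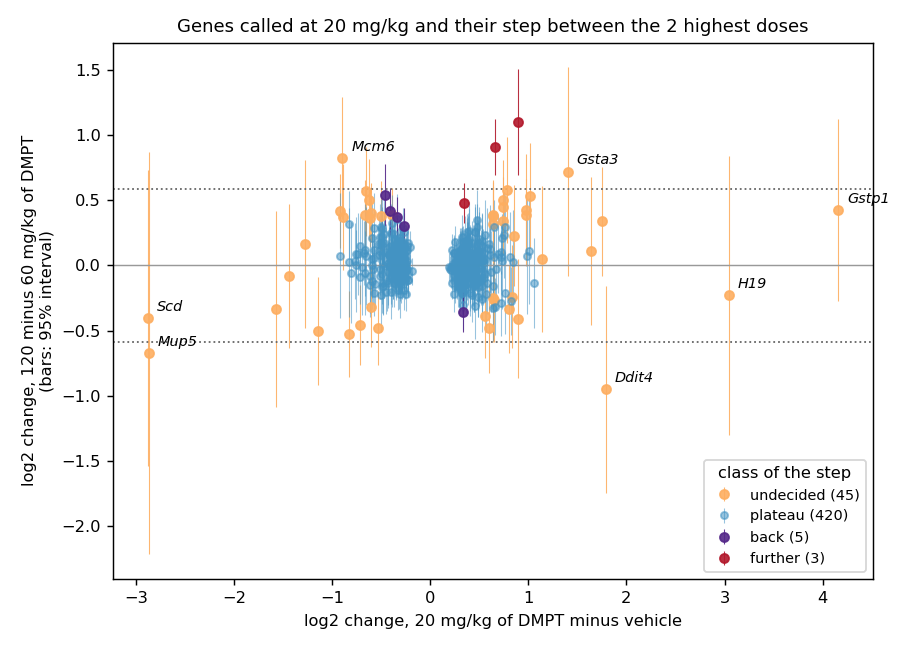
The log2 change from 60 to 120 mg/kg (vertical, with 95% intervals) is plotted against the change at 20 mg/kg over vehicle (horizontal) for 473 genes. The 420 plateau genes lie within the dotted lines at 1.5-fold, 3 genes went further, 5 turned back, and the genes with the largest changes at 20 mg/kg, such as Gstp1 and Scd, have wide intervals and are undecided.

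Gstp1, a glutathione transferase used as a marker of altered liver foci in rats, was the gene most raised at 20 mg/kg, by 4.16 log2. It read 12.23, 12.05, 11.93, 12.10 and 11.80 at 120 mg/kg, against 11.59, 11.75, 11.33, 11.67 and 11.65 at 60 mg/kg and 5.65 to 6.53 in vehicle. The doses did not overlap, and the distance between them was small beside the 5.48 log2 that separated 60 mg/kg from vehicle. Its step was 0.43, with a 95% interval of -0.27 to 1.12 (adjusted p = 0.827), and 0.236 was the adjusted p with only the 10 arrays compared. The error comes from all 6 groups, and the SD of Gstp1 was 1.21 at 6 mg/kg and 0.73 at 20 mg/kg, against 0.16 at either top dose.

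Other genes strongly raised at 20 mg/kg had no called step. Gstt3, a theta class glutathione transferase, had a step of 0.34 (-0.08 to 0.76), Gsta3, an alpha class one, 0.72 (-0.08 to 1.52) and Abcc3, an exporter of conjugates, 0.11 (-0.46 to 0.68). Abcc3 read 6.79 to 7.06 at 120 mg/kg, against 6.55 to 7.08 at 60 mg/kg. Of 21 glutathione S-transferases 0 were called in the step (median 0.07), while 11 had risen against vehicle at 120 mg/kg and 10 at 60 mg/kg. Of all genes 5.31% and 2.43% had risen at these doses. In the same list 1 had fallen at 120 mg/kg and 0 at 60 mg/kg. H19, an imprinted non-coding RNA, had a step of -0.23 with an interval of -1.30 to 0.84, and Rps27l, a p53-responsive ribosomal protein gene, 0.54 (0.13 to 0.94, adjusted p = 0.389). Acsm2 and Arrdc3, at 0.11 and -0.14, met the plateau rule, and Zbtb41, at 0.05 (-0.51 to 0.61), did not.

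Among the genes most lowered at 20 mg/kg, Scd, the desaturase that makes oleate, had a step of -0.40 with an interval of -1.54 to 0.73, and array 5 at 60 mg/kg stood apart at 7.04 where the other 4 read 5.07 to 5.55. Mup5, a urinary protein of male rats, had -0.67 (-2.22 to 0.87), Serpinb9b -0.33 (-1.09 to 0.42), Cyp3a9 -0.08 (-0.64 to 0.47), Trim36 0.16 (-0.48 to 0.81) and Oat, ornithine aminotransferase, -0.50 (-0.92 to -0.09, adjusted p = 0.472). Phlda3, an inhibitor of AKT, had 0.42 (0.13 to 0.70), Mcm6 0.82 (0.35 to 1.29) and Mybl1 0.37 (-0.04 to 0.78), none called. Apoa4, an apolipoprotein, met the plateau rule at 0.08 (-0.40 to 0.56).

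**Figure D5:**
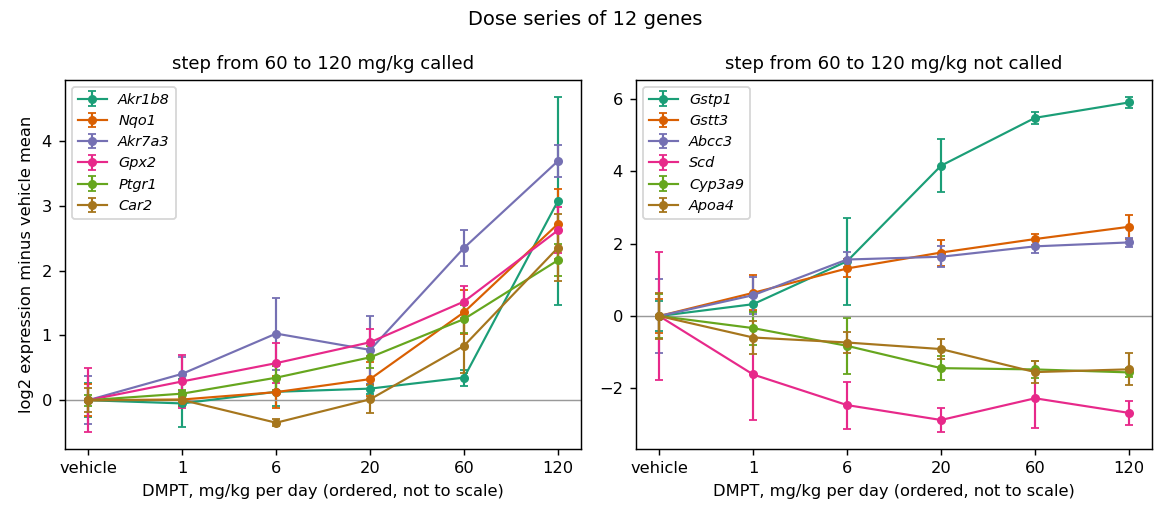
The group mean of log2 expression minus the vehicle mean (bars are SD of 5 arrays) is plotted by dose for 6 genes whose step from 60 to 120 mg/kg was called (left) and 6 strongly changed at 20 mg/kg whose step was not (right). On the left all 6 lines climb between 60 and 120 mg/kg, Akr1b8 from near vehicle. On the right Gstp1 gained 4.16 by 20 mg/kg and Scd lay lowest there.

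The same step was measured for p-toluidine on separate arrays with their own vehicle. Its 2 highest doses differed in 191 of 14217 genes (1.34%). Of the 35 genes of the DMPT step, 23 were called for p-toluidine in the same direction, 0 in the opposite direction, and 33 had the same sign. The DMPT minus p-toluidine difference of the steps was called for 2 of 31042 probe sets (0.00644%), with 1080 at an unadjusted p under 0.05. Levels of the compounds cannot be compared, since their arrays appear to have been normalized separately.

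Gucy2c, the guanylate cyclase receptor of the intestine, rose with both. For DMPT it read 3.51, 2.82, 3.40, 3.05 and 3.05 at 120 mg/kg, against 2.59, 2.82, 2.72, 2.75 and 2.57 at 60 mg/kg. For p-toluidine it read 3.67, 3.51, 2.79, 3.86 and 3.82 at 120 mg/kg, against 2.50, 1.89, 1.99, 1.93 and 2.01 at 60 mg/kg. The step was 0.48 ± 0.10 for DMPT and 1.46 ± 0.14 for p-toluidine (SE), and the difference was -0.99 (95% interval -1.35 to -0.62; limma adjusted p = 0.0205). Cyp3a2, a male-predominant cytochrome, had a step of -0.14 ± 0.08 for DMPT and -0.79 ± 0.09 for p-toluidine (SE), a difference of 0.66 (0.42 to 0.89; limma adjusted p = 0.0205). It read 11.71 to 12.07 at 120 mg/kg of DMPT, against 11.87 to 12.20 at 60 mg/kg, and 10.62 to 11.04 at 120 mg/kg of p-toluidine, against 11.25 to 11.89 at 60 mg/kg. Both calls of a difference were lost with only the 20 arrays compared and without the narrow arrays, where 0 were called.

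For the detoxifying enzymes the intervals of the difference included 0. It was 0.06 (-0.50 to 0.61) for Nqo1, 0.09 (-0.59 to 0.76) for Akr7a3, 0.21 (-0.37 to 0.79) for Gpx2, -0.06 (-0.49 to 0.38) for Ptgr1 and -0.61 (-1.59 to 0.38) for Akr1b8, which leaves room for differences of these sizes. Akr1b8 had a step of 3.33 ± 0.26 for p-toluidine (SE), with 6.05 to 8.41 at 120 mg/kg, against 3.33 to 5.04 at 60 mg/kg. Car2 had 2.34 ± 0.18 (SE) for p-toluidine, and its difference of -0.83 (-1.36 to -0.31) was not called over all probe sets (limma adjusted p = 1.00). Hsph1 and Tcf7l2 were the genes of opposite sign, with p-toluidine steps of -0.10 and 0.11, and Fhit had -0.42 (adjusted p = 0.113) and Npas2 -1.60 (adjusted p = 0.00034).

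Of the 54 probe sets, 39 carried 1 gene symbol, 1 several and 14 none in the annotation used. Ptprk (-0.41), Sgcb (0.53) and Fryl (-0.44) were called through a dimmer probe set and not through their brightest one, so they are not among the 35 genes and were named after their values were seen. In all, 15 of the 675 listed genes on the array changed, and 20 of the 35 genes stood in no list. Lists with no call in the step that are not described above were proteasome genes (median 0.01), acute phase genes (median -0.12), genes of the p53 response (0.06), interferon-stimulated genes (-0.03), PPARA targets (-0.05), fatty acid synthesis genes (-0.07), female-biased genes (-0.06), bile acid and hepatocyte transport genes (-0.11), and iron and heme genes (-0.04). Gluconeogenesis and glycolysis genes, aldehyde dehydrogenases, enzymes of N-oxidation, acetylation and methylation, and periportal genes had medians that round to 0.00 or 0.01. That of pericentral genes was -0.08. A decrease at an unadjusted p under 0.05 was seen in 7 of 25 acute phase genes and 6 of 22 bile acid and transport genes. Such a rise was seen in 0 of either list, and 3.59% of all genes had such a decrease.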

How the data were processed

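Liver RNA was measured on 60 one-colour arrays, 5 per group, of which the 30 DMPT arrays enter the comparison of 120 with 60 mg/kg. Per the submitters' processing notes the authors used RMA, with no version or settings given in the sources used here. The deposited values were taken as log2 expression, per the range of 0.0507 to 13.9 in the file. Array medians of 3.54 to 3.62 for DMPT and 2.73 to 2.81 for p-toluidine point to separate normalization. Each step or change from vehicle was therefore taken within a compound, and only the difference of the steps sets the compounds against each other. Precision rests on how many arrays a group has. The submitters' test against vehicle was not used here.

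Of 31099 probe sets, 57 controls were left out and 31042 tested with no brightness filter. Limma 3.58.1 in R 4.3.3 fitted 6 group means to the 30 DMPT arrays (24 residual degrees of freedom), adjusted by Benjamini-Hochberg across every probe set. The difference of the DMPT and p-toluidine steps came from 1 fit over 60 arrays, with 1 estimate of the spread shared by both compounds. A gene is its brightest probe set with 1 symbol. Symbols came from the platform annotation, 20826 probe sets having 1 symbol, 436 several and 9780 none, and 20758 were updated through RefSeq of GRCr8, whose promoters gave the sequences. The named genes were the 15 largest called rises and falls, up to 4 members per list with the largest step, and 10 rises and 10 falls at 20 mg/kg. Members and the 37 lists were chosen with earlier results of these data known. Arrays were called narrow where the interquartile range lay over 3 median absolute deviations below the median. No pair of arrays held identical values. The test was checked on simulated data. Alternatives were quantile normalization, array weights, a filter on dim probe sets, a trended robust prior, the mean of a gene's probe sets, the 10 arrays alone, a replicate block, left-out arrays and other plateau margins.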

Additional observations from a re-analysis of the deposited data

Results flagged for a closer look

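Among 182 groups of 5 arrays (91 genes at 2 doses), 10 held a single array far from the other 4, where chance gives about 1 in 20. At 60 mg/kg, array 3 read 10.01 for Akr7a3 (the others 10.56 to 10.65), 10.48 for Hspe1 (10.69 to 10.75) and 9.542 for Mgst2 (9.779 to 9.824). Array 5 at 60 mg/kg read 7.045 for Scd (5.073 to 5.552) and 8.237 for Acsm2 (8.733 to 8.902), and array 1 read 10.43 for Gstt3 (10.07 to 10.13). At 120 mg/kg, array 5 read 10.83 for Hspe1 (10.99 to 11.06) and 3.998 for Mup5 (2.80 to 3.099), array 1 read 6.117 for Cry1 (5.706 to 5.824) and array 4 read 6.795 for Nr1d2 (6.357 to 6.475). Mgst2, a microsomal glutathione transferase, was named after its values were seen.

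The steps of DMPT and p-toluidine differed by 0.6568 log2 for Cyp3a2 and by -0.9865 for Gucy2c, DMPT minus p-toluidine, by limma's test of the difference (adjusted p = 0.0205 for each). Neither was called with only the 20 arrays compared or without the narrow arrays, and Gucy2c is read by a dim probe set.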

How the results depend on the processing

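The count of 54 probe sets (40 higher, 14 lower) was 63 after quantile normalization and 65 with a trended robust prior. It was 14 (11 higher, 3 lower) with only the 10 arrays compared and 25 (20 higher, 5 lower) without the narrow arrays. Lower calls were 22 with dim probe sets left out and 22 with array weights, and 21 higher and 23 lower were called without the narrow arrays at 60 mg/kg, an alternative chosen after seeing the data, as was that at 120 mg/kg. Leaving out 1 array gave 24 to 77 calls, 16 to 61 higher and 6 to 18 lower. NRF2 targets called were 4 with only the 10 arrays and 5 to 7 with 1 array left out. Cell cycle genes called were 1 with only the 10 arrays, with dim probe sets left out, with the mean of a gene's probe sets or without the narrow arrays at 120 mg/kg, 0 without all narrow arrays or those at 60 mg/kg, and 0 to 5 with 1 array left out. Genes that turned back were 0 with only the 10 arrays and without the narrow arrays, 10 with array weights, 1 without the narrow arrays at 60 mg/kg and 3 without those at 120 mg/kg. Plateau genes were 871 and undecided genes 70 with array weights, and undecided genes were 72 without the narrow arrays, 177 at a narrower margin and 8 at a 2-fold margin. With 1 array left out, 0 to 6 turned back, 2 to 4 went further, 371 to 507 were at a plateau and 43 to 54 undecided. The difference between compounds was called for 0 probe sets with only the 20 arrays compared, 1 with dim probe sets left out, 0 without the narrow arrays and 0 to 3 with 1 array left out. The causes were not tested.

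Steps that changed sign, none of them called, were Scd at 0.0332, Trim36 at -0.0132 and Zbtb41 at -0.00899 without the narrow arrays at 60 mg/kg, and Abcc3 at -7.57e-05 without all narrow arrays. With 1 array left out the step ran between -0.139 and 0.0158 for Cyp3a9, -0.0460 and 0.456 for Trim36, -0.0717 and 0.197 for Apoa4, -0.00814 and 0.209 for Acsm2, -0.175 and 0.292 for Zbtb41, and -0.472 and 0.103 for H19. Arrays of the same number at 120 and 60 mg/kg had correlations of deviations of 0.07, -0.39, -0.39, 0.15 and 0.23 over probe sets. Those of different numbers ran from -0.27 to 0.42, so these values show no pairing but cannot exclude one. A replicate block gave 48 calls, 47 of them shared.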
